A study of Mus musculus with 2 samples.

Results

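The nuclear factor I family of transcription factors has 4 genes in the mouse, Nfia, Nfib, Nfic and Nfix, and all 4 were followed through the cell types of the newborn cerebellum. The 4 genes were taken by symbol from the 32285 genes listed in each deposited matrix. Lobules III and IV of the cerebellum had been microdissected at postnatal day 1, dissociated with papain and profiled as single cells with a droplet kit that counts the 3′ ends of polyA RNA. There were 2 libraries. One came from Cxcr4+/1013 mice, which carry 1 copy of the Cxcr4 allele named 1013 beside 1 wild-type copy, and is called the mutant library here. The other came from Cxcr4+/+ littermates and is called the control library. Both libraries carry the strain label B6.129S2-Cxcr4tm1.1Bala, and the labels do not say how many animals gave each. Both libraries held female and male cells, so each held cells of at least 1 female and 1 male. Because each genotype is 1 library, no difference between genotypes has a replicate check, and no p-value is given. The intervals printed are exact 95% intervals that cover counting error only.

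Nuclear factor I proteins bind DNA as dimers of one or several family members, at a palindrome in which TTGGC and GCCAA lie 5 bases apart, or at either arm of it alone. In the embryonic nervous system Nfia and Nfib promote the switch of progenitors towards glia, and Nfix takes part in the timing of neuronal differentiation. In the mouse cerebellum the family is known from granule cells, where it acts on axon outgrowth, on migration and on late genes such as Gabra6. Nfic is better known from tooth root formation than from the brain.

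The mutant library kept 7568 cells with a median of 13292 UMIs (unique molecular identifiers, 1 for each captured RNA molecule), and the control library 7713 cells with a median of 11912 UMIs. Cells were sorted into 21 classes by the UMIs of marker genes other than the 4 members, and a class is named for the markers that gated it. 17 classes held at least 50 cells in both libraries. The gates took 66.4% of the mutant and 57.3% of the control cells, and ungated cells were shallower, at medians of 10294 and 7174 UMIs. No class had a gating marker at 0 in all its cells, which the gates themselves make likely, so this does not check the names of the classes. Cxcr4 stood at 24.3 CPM (UMIs of the gene per 1000000 UMIs of the class, here of all cells; 23.4 to 25.2) in the mutant library and at 28.1 CPM (27.05 to 29.1) in the control library, and 3′ counts do not check the 1013 allele.

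Over all cells of a library, Nfib was the most counted member and Nfic the least. Nfib reached 2087 CPM in the mutant and 1621 CPM in the control library, and Nfia 1314 and 1092 CPM. Nfix stood at 358 CPM in the mutant and 318 CPM in the control library, and Nfic at 60.3 and 59.1 CPM. Nfib thus gave 54.7% of the family's UMIs in the mutant and 52.5% in the control library, while Nfic gave 1.58% and 1.91%. A UMI counts a captured molecule once, and the capture of each gene was not measured. No source used here says whether intronic reads were counted, so an effect of gene length on these levels was not tested. The genes span 416 kb (Nfib), 346 kb (Nfia), 100 kb (Nfix) and 59.5 kb (Nfic), which is also the order of their levels.

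The 4 genes lie on 3 chromosomes of the GRCm38 build. Nfib (ENSMUSG00000008575, minus strand, chr4:82290173-82705750) and Nfia (ENSMUSG00000028565, plus strand, chr4:97772734-98118874) share chromosome 4. Nfic (ENSMUSG00000055053) is on the minus strand at chr10:81396186-81455635. Nfix (ENSMUSG00000001911) is on the minus strand at chr8:84699876-84800344. Genes on the other strand overlap each of them, and the partners listed in the matrices have counts of their own. No source used here says whether the counting used strand, so whether their reads also entered the members' counts is not known. The most counted partner was E130114P18Rik, which covers the start of Nfia and gave 216 CPM in the mutant and 186 CPM in the control library, equal to 16.4% and 17.1% of the number of Nfia UMIs, from which it was counted apart. Gm11266, antisense within Nfib, gave 55.5 CPM in the mutant and 40.6 CPM in the control library. The partners of Nfic and Nfix held at most 213 UMIs each in either library.

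**Figure D1:**
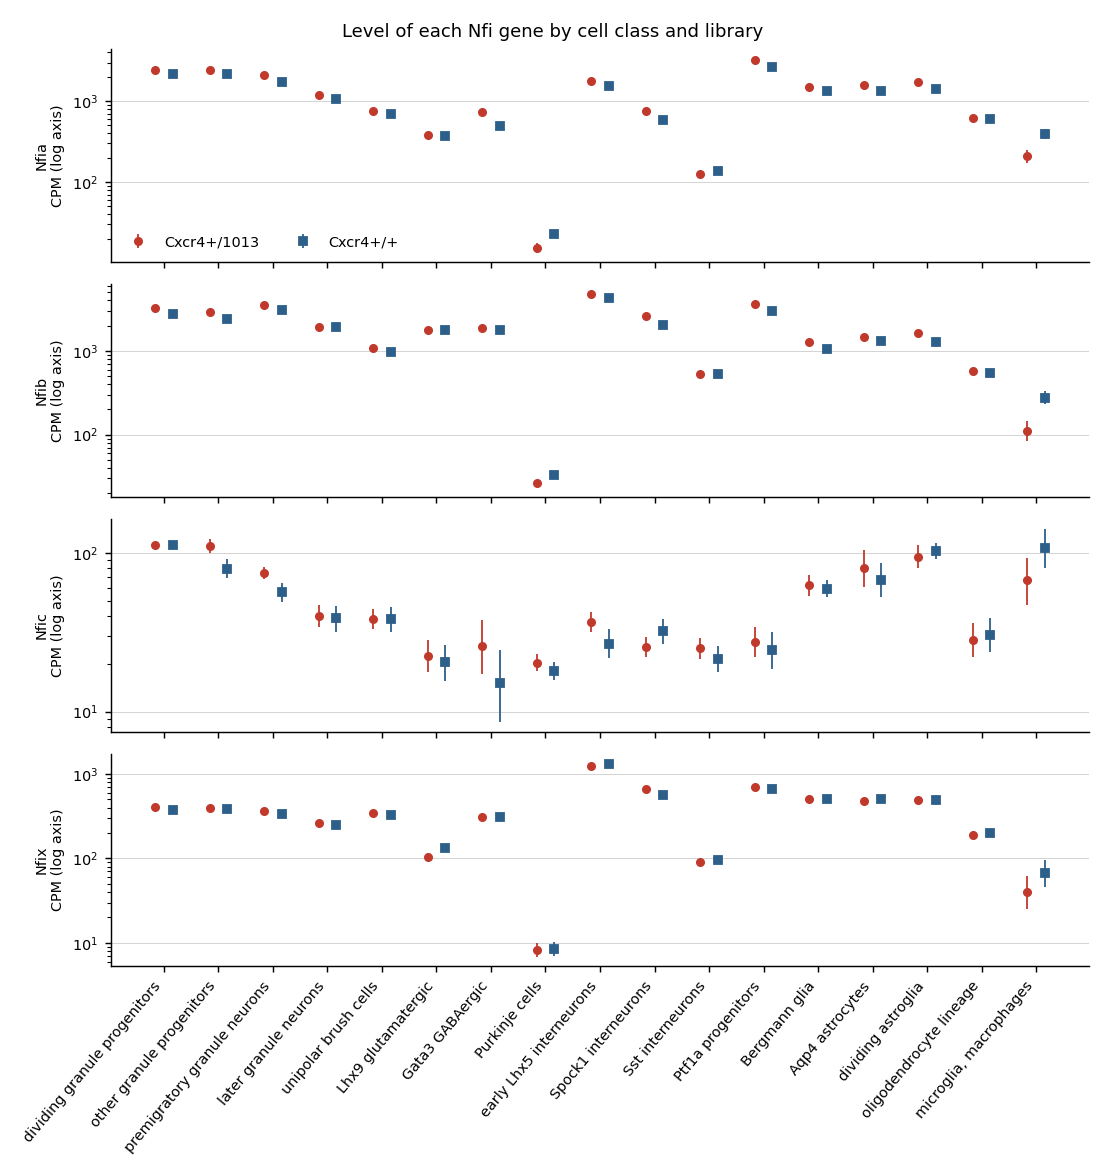
Level of each Nfi gene in the 17 described classes, in CPM on a log axis, with bars for the exact 95% counting interval. The mutant library is drawn to the left of the control library in each class. Nfia, Nfib and Nfix were lowest in Purkinje cells in both libraries, at 33.0 CPM or less, while Nfic had a much narrower range.

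Nfia was highest in the Ptf1a progenitors, the cells of the ventricular zone that give rise to inhibitory neurons, at 3245 CPM in the mutant and 2623 CPM in the control library. Atoh1 granule cell progenitors came next, at 2447 CPM in dividing cells and 2401 CPM in the others of the mutant library, against 2185 and 2136 CPM in the control library. Those 2 groups of granule cell progenitors overlapped in their counting intervals, in both libraries. Below them stood premigratory granule neurons (2102 CPM in the mutant, 1744 CPM in the control library) and early inhibitory interneurons (1786 and 1547 CPM). The 3 astroglial classes followed, between 1497 and 1744 CPM in the mutant and between 1334 and 1421 CPM in the control library, and overlapped with at least one neighbour each. The low end held Sst interneurons at 126 CPM in the mutant and 137 CPM in the control library, and Purkinje cells at 15.5 and 22.6 CPM. The highest class exceeded Purkinje cells 209-fold in the mutant and 116-fold in the control library.

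Nfib was ordered otherwise at the top. Its highest level was in early inhibitory interneurons, which carry Pax2 with Lhx5 or Slc6a5, at 4745 CPM in the mutant and 4324 CPM in the control library. Ptf1a progenitors followed in the mutant library at 3646 CPM, ahead of premigratory granule neurons at 3507 CPM. In the control library premigratory granule neurons stood at 3084 CPM and Ptf1a progenitors at 2996 CPM, and the counting intervals of those neighbours overlapped. Lhx9 Meis2 glutamatergic neurons, near the bottom for Nfia at 382 CPM in the mutant and 371 CPM in the control library, held 1766 and 1779 CPM of Nfib. Purkinje cells were again lowest, at 26.2 CPM in the mutant and 33.0 CPM in the control library.

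Nfix followed the Nfib order at its ends. Early inhibitory interneurons held 1228 CPM in the mutant and 1298 CPM in the control library, and Purkinje cells 8.31 and 8.49 CPM. Ptf1a progenitors at 707 CPM and Spock1 interneurons at 670 CPM in the mutant library overlapped in their intervals, and stood at 670 and 559 CPM in the control library. The astroglial classes, between 473 and 506 CPM in the mutant and between 489 and 504 CPM in the control library, lay above dividing granule cell progenitors at 406 and 379 CPM. In contrast to Nfia and Nfib, Nfix was therefore higher in astroglia than in granule cell progenitors.

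Nfic ranged least. Its highest level was in dividing granule cell progenitors, at 112 CPM in the mutant and 113 CPM in the control library. Astroglial classes held between 62.7 and 94.8 CPM of Nfic in the mutant and between 59.6 and 103 CPM in the control library. The inhibitory classes, Lhx9 neurons, oligodendrocyte lineage cells and Purkinje cells all lay between 20.4 and 36.9 CPM in the mutant and between 15.04 and 32.1 CPM in the control library, where nearly all neighbours in the order overlapped. From the highest class to the lowest the Nfic level differed 5.50-fold in the mutant and 7.49-fold in the control library. The order of the 17 classes was the same in both libraries at 11 ranks for Nfia, 11 for Nfib, 13 for Nfix and 5 for Nfic, and no class moved by more than 2, 1, 1 and 4 ranks in that order of genes.

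**Figure D2:**
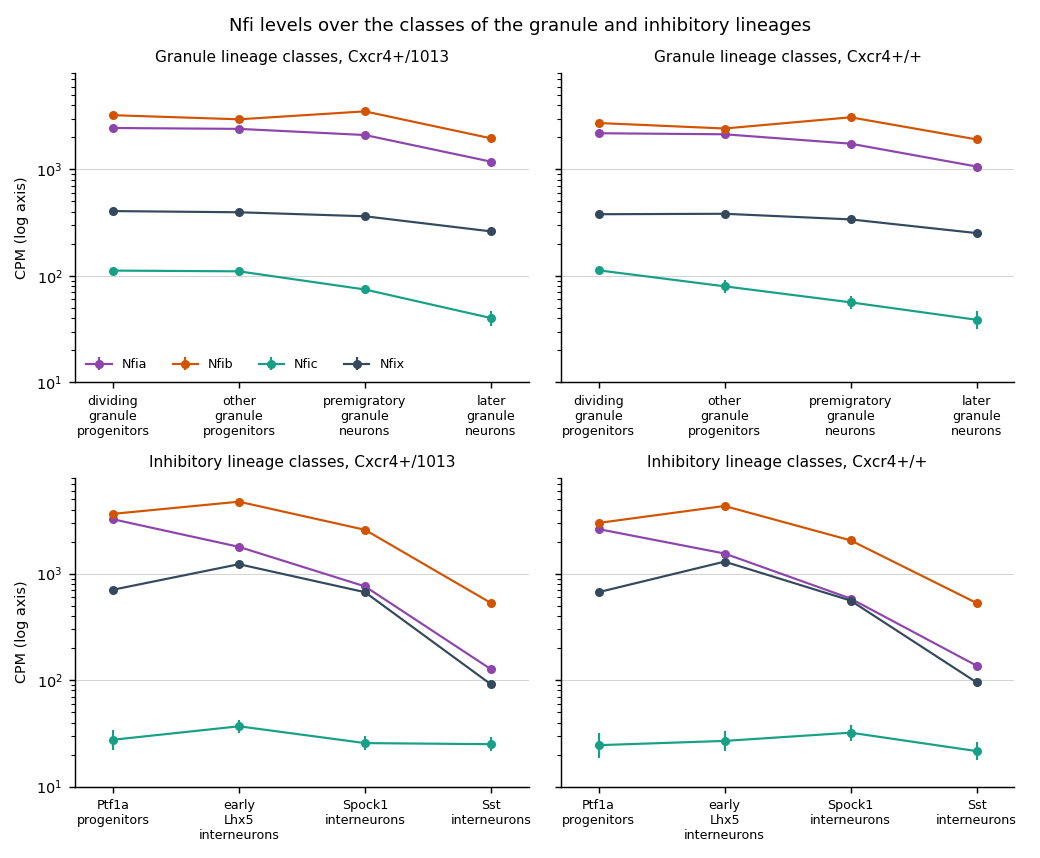
Nfi levels in CPM (log axis) along the granule cell classes and along the inhibitory interneuron classes, with the mutant library listed first and bars for the exact 95% counting interval. Nfib is higher in premigratory granule neurons than in granule cell progenitors and lower in later granule neurons, and Nfia, Nfib and Nfix are lowest in Sst interneurons.

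Along the granule lineage the members differed in where their level was lower. Granule cell progenitors divide in the outer layer of the cerebellum under Atoh1, leave the cycle as premigratory neurons with Cntn2 and Nhlh1, and then migrate inwards. Nfia in premigratory neurons was 0.875 times the level in progenitors with few division transcripts in the mutant library (0.852 to 0.899) and 0.816 times in the control library (0.788 to 0.845). Nfib was higher over that step, at 1.19 times (1.16 to 1.22) in the mutant and 1.27 times (1.24 to 1.31) in the control library. From premigratory to later granule neurons both were lower, Nfia at 0.562 times in the mutant and 0.610 times in the control library, and Nfib at 0.558 and 0.620 times. These gates set later neurons apart by Rbfox3 or Grin2b without Cntn2 or Nhlh1, and at postnatal day 1 such neurons are still young.

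Nfic and Nfix were lower in later granule neurons too. Nfic in later neurons was 0.358 times its level in dividing progenitors in the mutant library (40.1 CPM in later neurons) and 0.343 times in the control library (38.6 CPM). Nfix in later neurons was 0.645 times its level in dividing progenitors in the mutant library and 0.665 times in the control library. Over this span Nfic differed most, and Nfib least in the control library, where it stood at 0.701 times. Unipolar brush cells, a glutamatergic interneuron that shares the rhombic lip origin of granule cells, held 758 CPM of Nfia and 1073 CPM of Nfib in the mutant library, against 691 and 977 CPM in the control library. These levels were below those of all granule classes.

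The inhibitory lineage had wider steps. Nfib in early interneurons was 1.30 times its level in Ptf1a progenitors in the mutant library (1.27 to 1.33) and 1.44 times in the control library (1.40 to 1.49). Nfix in early interneurons was 1.74 times its progenitor level in the mutant and 1.94 times in the control library. Nfia was lower over the same step, at 0.550 times in the mutant and 0.590 times in the control library. Sst interneurons, marked by the neuropeptide somatostatin, then held 25.7 times less Nfia than Ptf1a progenitors in the mutant and 19.2 times less in the control library. Nfib in Sst interneurons stood at 530 CPM in both libraries, which was 0.145 times the progenitor level in the mutant and 0.177 times in the control library. Spock1 interneurons lay in between, with 2582 CPM of Nfib in the mutant and 2056 CPM in the control library. The Ptf1a gate finds inhibitory progenitors and the interneuron gates do not follow cells over time, so these are steps between classes.

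The ratio of Nfib to Nfia UMIs put the classes in another order, with neurons of other origins at one end and glia at the other. It was highest in Lhx9 neurons, at 4.63 in the mutant and 4.79 in the control library, followed by Sst interneurons at 4.19 and 3.88. Dividing granule cell progenitors had a ratio of 1.32 in the mutant and 1.25 in the control library, and premigratory granule neurons 1.67 and 1.77. In Bergmann glia, the radial astroglia of the cerebellar cortex, Nfia exceeded Nfib, with a ratio of 0.858 (0.821 to 0.898) in the mutant and 0.787 (0.756 to 0.819) in the control library. Oligodendrocyte lineage cells stood at 0.916 in the mutant and 0.909 in the control library. The ratio is between UMIs of different genes, so the side of 1 on which a class falls depends on capture, while the order of classes does not.

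Across the 17 classes the level of Nfib went with those of Nfia and Nfix more closely than with that of Nfic. On log2(CPM + 1), Pearson's r between Nfia and Nfib was 0.90 in the mutant and 0.86 in the control library, and between Nfib and Nfix 0.92 and 0.90. Between Nfib and Nfic it was 0.29 in the mutant and 0.17 in the control library, and between Nfia and Nfic 0.56 and 0.52. Purkinje cells carried part of this: over the 16 other classes r between Nfia and Nfib was 0.67 in the control library, and r between Nfib and Nfic was 0.07 in the mutant and -0.14 in the control library. The classes of one library share its preparation and depth, so these values describe the classes and carry no test.

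**Figure D3:**
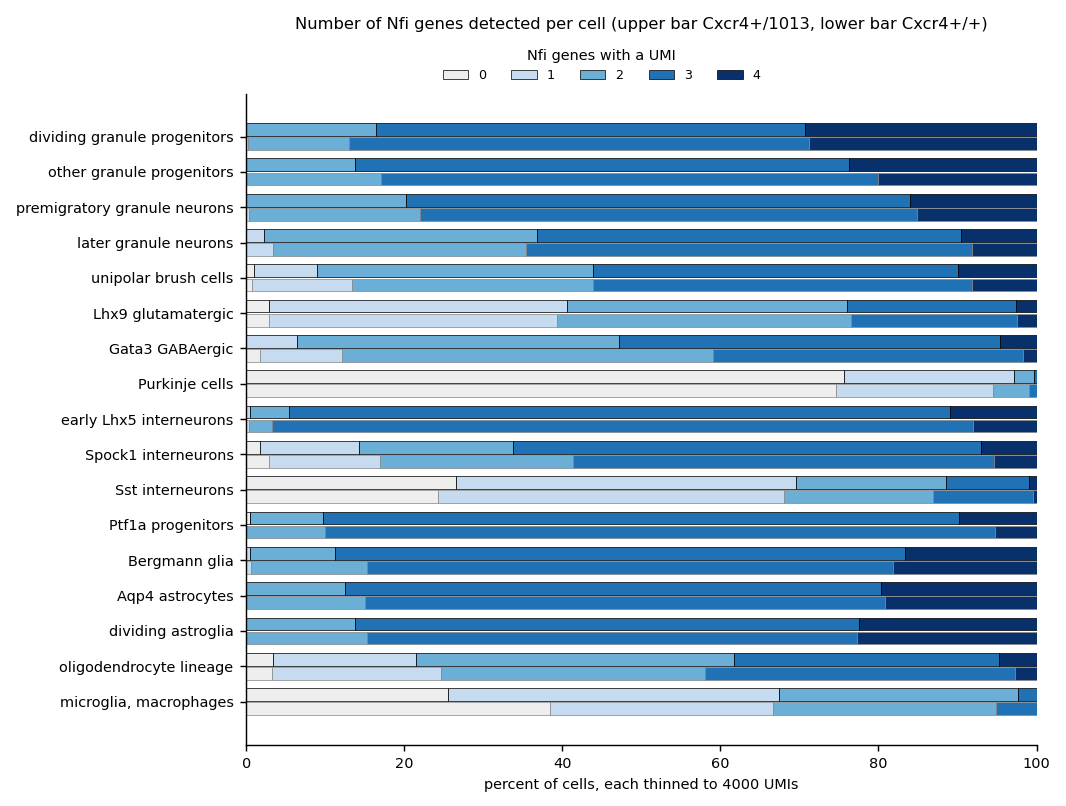
Share of cells of each class with UMIs of 0, 1, 2, 3 or 4 Nfi genes after every cell was thinned to 4000 UMIs, with the mutant library above the control library. Most early inhibitory interneurons hold 3 or 4 members and most Purkinje cells hold none.

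Single cells showed how the members were combined. To set classes of different depth side by side, each cell was thinned to 4000 UMIs and shallower cells were left out. Both Nfia and Nfib were then found in 99.8% of dividing granule cell progenitors in either library. At least 3 members were found in 94.5% of early inhibitory interneurons in the mutant and 96.8% in the control library, and in 83.6% and 87.0% of dividing granule cell progenitors. Sst interneurons reached 11.4% in the mutant and 13.1% in the control library. Nfix was found in 95.7% of early inhibitory interneurons in the mutant and 98.1% in the control library.

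Free RNA in the droplets can give UMIs in cells that do not make a gene, and its level was not measured here. The shares in Purkinje cells, the lowest of the classes for Nfia, Nfib and Nfix, are given for it, and since these are deep cells, thinning keeps less of a fixed amount of free RNA in them than in shallower cells. After thinning, 10.4% of Purkinje cells held Nfib in the mutant (7.51% to 13.8%) and 11.96% in the control library (9.01% to 15.5%), and 39.0% and 45.9% did before thinning, at median depths of 36096 and 35025 UMIs. The thinned share for Nfia in Purkinje cells was 5.70% in the mutant and 8.37% in the control library, for Nfix 3.37% and 4.07%, and for Nfic 8.03% and 7.42%. None of the 4 members was found in 75.6% of thinned Purkinje cells in the mutant and 74.6% in the control library. Nfic in Ptf1a progenitors, at 10.3% in the mutant and 6.62% in the control library (median depths 15347 and 14116 UMIs), had intervals that overlapped those of Purkinje cells. In dividing granule cell progenitors the Nfic share was 36.6% in the mutant and 38.5% in the control library, at median depths of 20628 and 19149 UMIs.

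In Lhx9 Meis2 neurons Nfib was often found without Nfia. Nfib was found in 95.6% of them in the mutant and 96.4% in the control library, against 50.9% and 50.2% for Nfia, at median depths of 11857 and 11284 UMIs before thinning. Nfib without Nfia was found in 45.02% of these cells in the mutant and 46.6% in the control library, and Sst interneurons had like shares, at 45.2% and 46.5%. Without thinning and among cells with at least 4000 UMIs, the median cell held 1496 CPM of Nfib in the mutant and 1629 CPM in the control library, and 186 and 184 CPM of Nfia. The 10th percentile of Nfia was 0 in both libraries, and the 90th was 1027 CPM in the mutant and 991 CPM in the control library. Among oligodendrocyte lineage cells Nfia without Nfib was found in 13.4% in the mutant and 15.3% in the control library. Nfib without Nfia was about as common there, at 12.1% and 14%. Both genes were found in 67.1% of these cells in the mutant and 66% in the control library. The product of the shares of each gene was 63.8% and 65.1%.

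Nfib varied among the cells of the interneuron classes. In Spock1 interneurons the 10th and 90th percentiles of Nfib over cells were 266 and 6299 CPM in the mutant, against 234 and 5388 CPM in the control library. In dividing granule cell progenitors they were 2163 and 4240 CPM in the mutant, against 1754 and 3607 CPM in the control library. Within Spock1 interneurons, clustering of all cells without the members placed 29.2% of the mutant and 26.0% of the control cells in a cluster with 4448 and 3596 CPM of Nfib, and 48.2% and 55.7% in another with 1271 and 1178 CPM. The Spock1 gate thus held cells with high and with low Nfib.

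The study compared the genotypes, and over all cells 3 of the 4 members had more of the library's UMIs in the mutant. The log2 ratio of mutant over control was 0.27 (0.26 to 0.28) for Nfia, 0.36 (0.36 to 0.37) for Nfib, 0.17 (0.15 to 0.19) for Nfix and 0.03 (-0.02 to 0.08) for Nfic. As ratios these are 1.203-fold for Nfia, 1.29-fold for Nfib, 1.12-fold for Nfix and 1.02-fold for Nfic. None reached 1.5-fold, which 2.27% of the 19130 genes with at least 50 UMIs did on the higher side and 7.1% on the lower side. An interval wholly above 0 was common at this depth, at 27.9% of those genes and at 38.8% of genes with at least 1000 UMIs, and an interval wholly below 0 was found for 29.5%. The median log2 ratio over all genes was -0.01.

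The make-up of the libraries moved with these ratios. Premigratory granule neurons numbered 523 in the mutant and 323 in the control library, dividing granule cell progenitors 610 and 494, and early inhibitory interneurons 447 and 318, all classes with high Nfia and Nfib. Bergmann glia numbered 191 in the mutant and 305 in the control library. When each class level was weighted by the control library's own share of classes, the log2 ratio was 0.20 for Nfia, 0.20 for Nfib, 0.09 for Nfic and 0.04 for Nfix, against 0.29, 0.37, 0.10 and 0.15 for the same classes pooled as they came. This weighting was chosen after seeing the data. Whether the class sizes differ between genotypes or between dissections cannot be told apart with 1 library each.

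**Figure D4:**
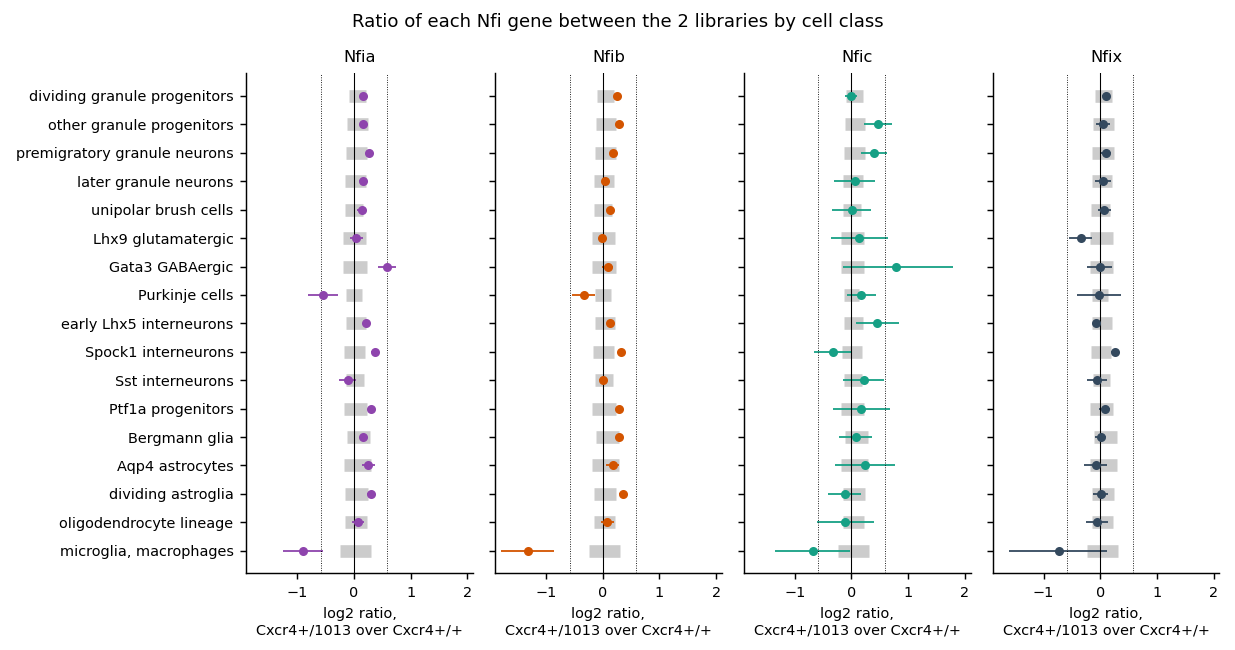
Log2 ratio of mutant over control for each Nfi gene in each described class, with exact 95% counting intervals and lines at 0 and at 1.5-fold. For Nfia and Nfib 14 of the 17 classes lie above 0 (13 for Nfib with TMM or DESeq2 scaling), and the microglia and border macrophages lie furthest below it.

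Within classes, Nfia and Nfib were higher in the mutant in 14 of 17 classes each, Nfic in 12 and Nfix in 9, and with TMM or DESeq2 scaling these were 14, 13, 11 and 7 in the order Nfia, Nfib, Nfic, Nfix. Of the 68 pairs of a member and a class, 49 were higher in the mutant, and the interval lay above 0 in 28 and below 0 in 7. By class, between 7.85% and 21.1% of genes had an interval above 0 and between 6.46% and 13.9% below it. The median log2 ratio over the classes was 0.17 for Nfia, 0.13 for Nfib, 0.14 for Nfic and 0.01 for Nfix, beside all-gene medians between -0.00 and 0.09. The classes come from the same 2 libraries, so 14 of 17 is 1 comparison seen in many cell types and not 17 repeats of it. Among genes with at least 1000 UMIs in a class, between 17.2% and 35.2% had an interval above 0.

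In granule classes the differences were small and most lay above 0. In dividing granule cell progenitors the log2 ratio was 0.16 (0.14 to 0.19) for Nfia, 0.24 (0.22 to 0.27) for Nfib and 0.10 (0.04 to 0.16) for Nfix, and 3 of the 4 members had an interval above 0, against 21.1% of genes. For Nfia this held in male cells (0.29) and not in female cells (0.03, -0.01 to 0.06), likewise in progenitors with few division transcripts (0.30 and -0.04). In progenitors with few division transcripts Nfia, Nfib and Nfic had intervals above 0, against 13.2% of genes, with Nfib at 0.29 (0.24 to 0.33) and Nfic at 110 CPM in the mutant and 79.7 CPM in the control library. In premigratory granule neurons all 4 members did, against 18.3% of genes, led by Nfic at 0.40 (0.17 to 0.63) and Nfia at 0.27 (0.23 to 0.31). The Nfix intervals of dividing progenitors and premigratory neurons reached below 0 with TMM scaling, at 0.05 (-0.01 to 0.11) and 0.07 (-0.03 to 0.16). In later granule neurons only Nfia did, at 0.15 (0.09 to 0.22), against 12.5% of genes, and Nfib there was 1957 CPM in the mutant and 1912 CPM in the control library. In unipolar brush cells Nfia and Nfib did, each at 0.13, against 9.9% of genes, and with clusters in place of gates both intervals reached below 0.

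In the inhibitory lineage Ptf1a progenitors had the interval above 0 for Nfia at 0.31 (0.26 to 0.35) and Nfib at 0.28 (0.24 to 0.33), against 13.4% of genes. Early interneurons had it for Nfia, Nfib and Nfic, against 13.7% of genes, and below 0 for Nfix at -0.08 (-0.14 to -0.02), against 9.12% of genes. The Nfix interval spanned 0 with clusters in place of gates (0.00, -0.05 to 0.06), with stricter gates and in male cells (-0.05, -0.13 to 0.04), and the Nfic interval with clusters and stricter gates. In Spock1 interneurons Nfia at 0.38 (0.31 to 0.45), Nfib at 0.33 (0.29 to 0.37) and Nfix at 0.26 (0.19 to 0.33) had intervals above 0, against 14.6% of genes. Within the cluster of high Nfib described above, the Nfib log2 ratio was 0.31 (0.25 to 0.37), and in the cluster of lower Nfib it was 0.11 (0.04 to 0.18), while a further cluster with 5456 CPM in the mutant and 5310 CPM in the control library (0.04) held 16.1% and 10.03% of the class. In Sst interneurons none of the 4 members had an interval above 0, against 12.7% of genes, and Nfib stood at 530 CPM in both libraries.

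In Lhx9 Meis2 neurons no member had an interval above 0, against 13.6% of genes, and Nfix was below 0 at -0.35 (-0.56 to -0.14), against 11.4% of genes, with 105 CPM in the mutant and 133 CPM in the control library. Male cells made up 6.55% of that class in the mutant and 33.2% in the control library, so the sex of the animals behind those cells differed between the libraries. The Nfix interval spanned 0 in each sex, at -0.17 (-0.42 to 0.09) in female and -0.51 (-1.13 to 0.07) in male cells. Only 18 mutant cells of the class were male. In midbrain-type GABAergic neurons Nfia reached 741 CPM in the mutant and 494 CPM in the control library, at 0.58 (0.42 to 0.75), against 7.85% of genes with an interval above 0. Male cells were 12.4% of that class in the mutant and 36.3% in the control library, and Nfia was at 0.77 (0.57 to 0.97) in female and 0.12 (-0.27 to 0.50) in male cells. Nfic was past 1.5-fold in that class at 0.79 (-0.15 to 1.78), against 5.43% of genes, on 26.1 CPM in the mutant and 15.04 CPM in the control library, and its interval spans 0. In Purkinje cells no member had an interval above 0, against 14.8% of genes, and Nfia at -0.55 (-0.81 to -0.29) and Nfib at -0.33 (-0.54 to -0.13) were below 0, against 13.9% of genes, at the low levels given above. With stricter gates these were -0.05 (-0.27 to 0.17) for Nfia and 0.07 (-0.09 to 0.23) for Nfib.

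In each astroglial class the intervals of Nfia and Nfib lay above 0, though not under every setting. In Bergmann glia Nfib was 1285 CPM in the mutant and 1050 CPM in the control library, at 0.29 (0.23 to 0.35), and Nfia was at 0.17 (0.11 to 0.22), against 18.8% of genes with an interval above 0. TMM scaling, which moved all log2 ratios of that class by 0.11, gave 0.18 for Nfib, 0.05 (-0.01 to 0.11) for Nfia and -0.11 for Nfix. In dividing astroglia Nfib was at 0.36 (0.29 to 0.43) and Nfia at 0.30 (0.22 to 0.37), against 11.4% of genes. The cluster taken for this class gave 0.11 (-0.11 to 0.32) for Nfib and -0.11 (-0.30 to 0.07) for Nfia. That cluster held 63 mutant and 304 control cells at a median of 1672 UMIs. Only 10 of its cells were gated as dividing astroglia, so it cannot check the class. In Aqp4 astrocytes Nfia was at 0.26 (0.14 to 0.37) and Nfib at 0.17 (0.06 to 0.29), against 11.2% of genes, and with TMM scaling Nfib was at 0.08 (-0.04 to 0.20). Nfix in Bergmann glia stood at 506 CPM in the mutant and 504 CPM in the control library. In oligodendrocyte lineage cells no member had an interval above 0, against 11.1% of genes.

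Microglia and border macrophages were the only described class with members past 1.5-fold on the lower side, where all 4 were, against 6.05% of genes. Nfia held 209 CPM in the mutant and 391 CPM in the control library, and Nfib 111 and 276 CPM. Intervals lay below 0 for Nfia, Nfib and Nfic, against 8.4% of genes, and above 0 for none, against 11.7%. Single cells held much of the Nfia and Nfib UMIs: 1 control cell of 25523 UMIs held 50.8% of the Nfia and 54.7% of the Nfib UMIs of its class. Without the cell with the most UMIs of the gene in each library, the log2 ratio was -0.08 (-0.51 to 0.35) for Nfia, -1.02 (-1.68 to -0.38) for Nfib, -0.78 (-1.49 to -0.09) for Nfic and -0.37 (-1.40 to 0.66) for Nfix. Nfib then stood at 65.4 CPM in the mutant and 133 CPM in the control library. After thinning, Nfia was found in 46.5% of these cells in the mutant and 46.2% in the control library, of 43 and 39 cells deep enough.

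**Figure D5:**
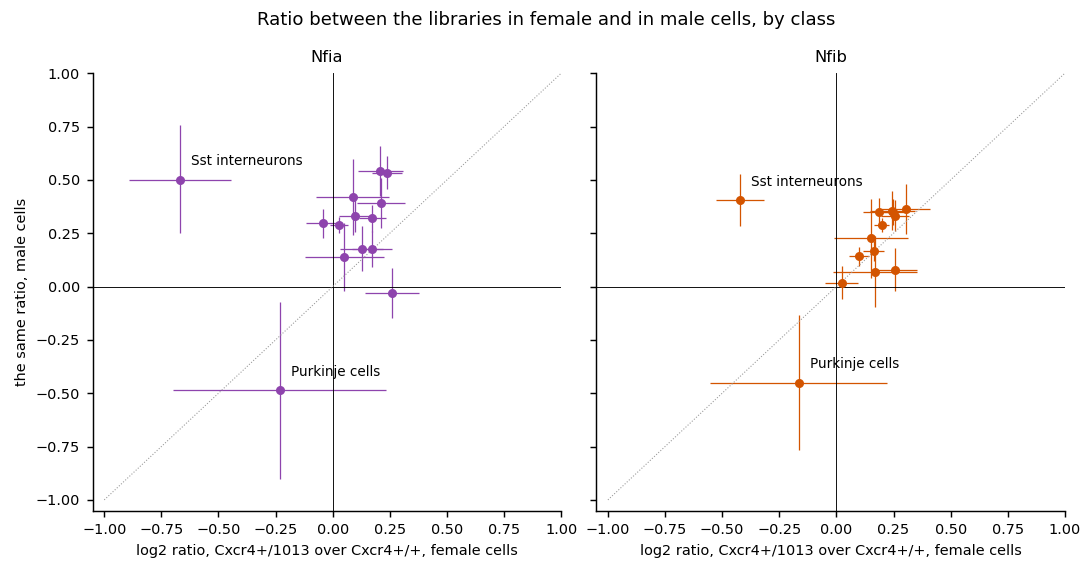
Log2 ratio of mutant over control in female and in male cells, for Nfia and Nfib, with exact 95% counting intervals. The 14 classes with at least 20 cells of each sex in each library are drawn. Most classes lie above 0 in both sexes for Nfia and Nfib, and Sst interneurons lie on opposite sides of 0.

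Sex gave a second look, since female and male cells of a library come from different animals. Cells were called female by Xist without Y-linked transcripts and male by the reverse. Over all cells the log2 ratio of mutant over control in female cells was 0.19 for Nfia, 0.33 for Nfib, 0.02 for Nfic and 0.09 for Nfix. In male cells it was 0.36 for Nfia, 0.40 for Nfib, 0.04 for Nfic and 0.22 for Nfix. In 14 classes with at least 20 cells of each sex in each library, Nfia was higher in the mutant in both sexes in 10 and Nfib in 12. The interval lay above 0 in both sexes in 7 classes for Nfia, 8 for Nfib, 1 for Nfic and 0 for Nfix, beside 4.42% of all pairs of a gene and a class. The male ratio was above the female one in 12 of the 14 classes for Nfia, 10 for Nfib, 6 for Nfic and 8 for Nfix. Both sexes of a library still shared its dissociation and capture.

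By a fixed rule, the 3 genes whose log2(CPM + 1) over the 17 classes was most correlated with each member in both libraries were named, out of 14169 genes. For Nfia these were Sdccag8, a centrosomal protein (r of 0.96 in the mutant and 0.95 in the control library), the splicing factor Smndc1 (0.93 in both) and Smad4, the shared partner of the SMAD signal transducers (0.93 and 0.92). Sdccag8 held 57.5 CPM in dividing granule cell progenitors in the mutant and 50.03 CPM in the control library, and 4.12 and 3.84 CPM in Purkinje cells. For Nfib they were the zinc finger gene Zfp644 (0.92 in both), the transcriptional repressor Bach2 (0.91 in both) and Sdccag8 (0.90 and 0.91). For Nfix they were Tead1, a DNA-binding partner of the Hippo pathway (0.92 in both), Nfib itself (0.92 and 0.90) and Sdccag8 (0.90 in both). For Nfic they were the membrane protein Cd63, the LIM protein Csrp1 and the trafficking protein Tmed2, at 0.85 or above in both libraries. With log2(CPM + 10) in place of log2(CPM + 1), 3 of the 3 genes were kept for Nfia, 2 for Nfib, 1 for Nfic and 2 for Nfix, and with Spearman's rho 2, 0, 1 and 1 in that order.

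Lists of genes linked to the family were set beside the members. Genes linked to it in granule neurons were Gabra6, Grin2c, Wnt7a, Tiam1, Cntn2, Cdh2, Efnb1 and Etv1. Gabra6 and Grin2c, receptor subunits of mature granule cells, were almost absent at this age, with 11 UMIs each in all mutant cells and 9 and 12 in all control cells. Of the 6 measured genes none was past 1.5-fold over all cells, against 2.27% of genes, and the list's median log2 ratio was 0.01 beside -0.01 for all genes. In premigratory granule neurons Tiam1, an activator of the GTPase Rac, held 103 CPM in the mutant and 80.3 CPM in the control library, at 0.36 (0.17 to 0.56), and the cadherin Cdh2 261 and 233 CPM. These were 2 of the 4 measured there, with a list median of 0.13 beside 0.06 for all genes. In dividing granule cell progenitors the adhesion molecule Cntn2 was past 1.5-fold, against 3.21% of genes, at 18.8 CPM in the mutant and 12.4 CPM in the control library.

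Genes linked to the family in astroglia were Gfap, Fabp7, Apcdd1, Mmd2, Zcchc24 and Hepacam. Over all cells 4 of the 6 were at least 1.5-fold lower in the mutant, against 7.1% of genes, all 6 had an interval below 0, against 29.5%, and the median log2 ratio was -0.65. The fatty acid binding protein Fabp7 held 788 CPM in the mutant and 1402 CPM in the control library, and the intermediate filament Gfap 4.38 and 10.1 CPM. Bergmann glia made up fewer of the mutant cells, as given above. Within Bergmann glia none of the 6 was past 1.5-fold and the median log2 ratio was -0.09 beside 0.09 for all genes. The list's median was 0.18 beside 0.04 in dividing astroglia and -0.07 beside 0.06 in Aqp4 astrocytes. In Bergmann glia Fabp7 stood at 11174 CPM in the mutant and 13238 CPM in the control library, Hepacam was higher at 354 and 312 CPM, and 3 of the 6 had an interval below 0, against 7.81% of genes. In Ptf1a progenitors 3 of the 5 measured were at least 1.5-fold lower, against 3.89% of genes, with Fabp7 at 1427 CPM in the mutant and 2356 CPM in the control library. Fabp7 was also lower in premigratory granule neurons, at 76.5 CPM in the mutant and 177 CPM in the control library, in cells where Nfia and Nfib were higher, and the part of free RNA from glia in that value was not tested.

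The third list held 16 genes placed upstream of the family or beside it: Sox9, Sox2, Pax6, Meis1, Atoh1, Zeb1, Rest, Ski, the calcineurin subunits Ppp3ca, Ppp3cb and Ppp3r1, and the NFAT factors Nfatc1, Nfatc2, Nfatc3, Nfatc4 and Nfat5. Genes that gate a class were left out in that class. Over all cells 8 had an interval above 0, against 27.9% of genes, and 5 below it, against 29.5%, and Nfatc1 and Nfatc2 were past 1.5-fold on the lower side, with Nfatc2 at 10.7 CPM in the mutant and 20.2 CPM in the control library. In dividing granule cell progenitors 6 of the 13 measured had an interval above 0, against 21.1% of genes, and none below, with a median of 0.15 beside 0.06 for all genes. Meis1, a homeobox factor of granule cell development, held 534 CPM in the mutant and 449 CPM in the control library there, and Ppp3cb 126 and 107 CPM. In premigratory granule neurons 4 of 9 had an interval above 0, against 18.3% of genes, with a median of 0.23 beside 0.06. Nfatc2 in Bergmann glia stood at 55.7 CPM in the mutant and 72.2 CPM in the control library, at -0.38 (-0.66 to -0.09).

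Promoters of these genes were read for the family's binding word, because several are described as direct targets in granule cells or astroglia. The word searched was TTGGCA, the arm TTGGC followed by A, or its reverse complement TGCCAA, which do not overlap. An arm without that added base was not counted. In RefSeq windows of GRCm38.p6 from 250 bases before to 50 after the start of a gene, this word was present in 14.1% of 32851 windows. By gene it was present in 16.1% of 27025 genes, in 3 of the 7 granule list genes with a window, in 2 of the 5 astroglial list genes and in none of the 3 members with a window (Nfia, Nfic and Nfix). The members' windows do not cover the gene starts given above. The Nfia window (chr4:97581693-97581992) lies before the Nfia start, and those of Nfic and Nfix lie within the genes. The full palindrome, TTGGC and GCCAA with any 5 bases between them, was present in 12 windows in all, and in none of the windows of these lists and members. Each stretch below is 100 bases, printed 5′ to 3′ on the strand of its gene with that word in capitals, so that the word can be read in its setting.
Gabra6: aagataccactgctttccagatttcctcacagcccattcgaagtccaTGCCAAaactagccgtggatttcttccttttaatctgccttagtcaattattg
Tiam1: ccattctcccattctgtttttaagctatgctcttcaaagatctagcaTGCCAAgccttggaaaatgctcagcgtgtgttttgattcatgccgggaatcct
Etv1: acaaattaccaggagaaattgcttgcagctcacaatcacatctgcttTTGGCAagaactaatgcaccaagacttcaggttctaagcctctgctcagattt
Mmd2: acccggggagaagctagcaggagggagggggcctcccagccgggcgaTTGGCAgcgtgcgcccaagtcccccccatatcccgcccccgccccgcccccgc
Hepacam: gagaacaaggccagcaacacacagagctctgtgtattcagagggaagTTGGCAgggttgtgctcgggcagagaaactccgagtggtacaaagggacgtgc

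The Gabra6 stretch is chr11:42321070-42321169 on the minus strand, with the first base of the word 50 bases before the start. The Tiam1 stretch is chr16:89974695-89974794 on the minus strand, 48 bases before it. The Etv1 stretch is chr12:38783479-38783578 on the plus strand, 185 bases before it, and the Mmd2 stretch chr5:142608805-142608904 on the minus strand, 105 bases before it. The Hepacam stretch is chr9:37367520-37367619 on the plus strand, 39 bases before the start. Each distance is to the start of the window printed. Tiam1 and Etv1 have 2 windows each, the other window of each holds no such word, and the other start of Etv1 lies further upstream than its word. Of these genes Tiam1 in premigratory neurons and Hepacam in Bergmann glia were higher in the mutant, Mmd2 in Bergmann glia was lower at 195 CPM in the mutant and 238 CPM in the control library, and Gabra6 was too scarce to read. TMM scaling lowers all log2 ratios of Bergmann glia by 0.11, which makes the Hepacam difference smaller and the Mmd2 difference larger. A match is a description of the letters and says nothing of binding here.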

How the data were processed

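The deposited matrices hold raw UMI counts per gene and barcode, made by the authors with Cell Ranger 7.2 after bcl2fastq 2.20.0.4222 against mm10, per the file headers and the submitters' processing notes. No source used here says whether intronic reads or strand entered the counting. The labels' genotype field reads Cxcr4+/1013 and the extract protocol Cxcr4+/-, and the genotype field was followed. The barcode filter asked for 500 genes or more and no more than 10% mitochondrial UMIs, and doublets were removed by Scrublet score at 0.8% per 1000 deposited barcodes (7.64% in the mutant, 7.67% in the control library). The libraries shared 25 barcodes, and were read separately. Deposited barcodes numbered 9551 and 9586. Cells passing the gates of several classes (485) were left out. The 4 members, the lists and the named genes follow rules chosen with earlier results of these data known, and gate thresholds were set after seeing the data.

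UMIs were summed per class and library and divided by the class's total, with exact Poisson intervals for levels, exact conditional binomial intervals for ratios and Clopper-Pearson intervals for shares. A gene counted as past the fold at 1.5-fold with at least 50 UMIs. Genes most like a member were ranked by the lower r of both libraries, without gating, mitochondrial, ribosomal, haemoglobin and sex-linked genes or unnamed models. Alternatives were TMM (edgeR 4.0.16) and DESeq2 1.42.0 scaling, other filters, stricter gates, Leiden clusters (scanpy 1.11.5; 32 clusters), each sex, equal weight per cell, and other pseudocounts and thinning depths. Python 3.11.15 and R 4.3.3 were used. The code was tested on simulated data.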

Additional observations from a re-analysis of the deposited data

Results flagged for a closer look

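In Sst interneurons female and male cells gave opposite differences between genotypes for 3 members. The share of all genes with such opposite intervals was not computed, so this count has no background beside it. The difference between the sexes was not tested, with 1 library per genotype. For Nfia the log2 ratio of mutant over control was -0.67 in female cells (96.0 CPM in the mutant, 153 CPM in the control library) and 0.50 in male cells (137 and 96.8 CPM). For Nfib it was -0.42 in female cells and 0.40 in male cells, and for Nfix -1.03 and 0.51. The class held 157 mutant and 129 control female cells, and 140 mutant and 104 control male cells. In the 1 cluster that held 84.1% of the mutant and 81.5% of the control cells of the class, the Nfib log2 ratio was 0.21 (0.06 to 0.35) in female and -0.00 (-0.17 to 0.17) in male cells, and that for Nfia 0.21 (-0.16 to 0.58) and -0.33 (-0.77 to 0.11). In that cluster the signs were thus turned round, and of these intervals only the one for Nfib in female cells lay off 0. Outside it, 18 mutant and 10 control cells of another cluster held 1884 and 1104 CPM of Nfib.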

How the results depend on the processing

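No paired analysis was possible because each genotype is 1 library. Over all cells the Nfia log2 ratio (0.27) was 0.28 with TMM, 0.30 with DESeq2 factors, 0.29 without doublet removal, 0.23 with at least 1000 genes and at most 5% mitochondrial UMIs, 0.19 in female cells, 0.36 in male cells, 0.24 without mitochondrial, ribosomal protein and haemoglobin UMIs, 0.22 with cells weighted equally and 0.20 with the control make-up. In the same order without the doublet setting, Nfib (0.36) was 0.38, 0.40, 0.31, 0.33, 0.40, 0.34, 0.34 and 0.20. Nfix (0.17) was 0.20 with DESeq2 factors, 0.14 with the stricter barcode filter, 0.093 in female cells, 0.22 in male cells, 0.14 without those UMIs, 0.24 with equal weights and 0.040 with the control make-up. Nfic (0.03) was 0.092 with the control make-up. With Leiden clusters the top class exceeded Purkinje cells 114-fold in the mutant and 84.1-fold in the control library for Nfia, 96.9-fold and 83.9-fold for Nfib, and 114-fold and 107-fold for Nfix. At 10 UMIs or more, 1017 genes were past the fold upward and 2500 downward, against 434 and 1359. In microglia and border macrophages the sign turned for Nfia without doublet removal (0.13), with clusters (0.19) and in male cells (0.090), for Nfib in the same settings (0.36, 0.31 and 0.47), and for Nfix with clusters (0.86), stricter gates (0.26) and in male cells (0.59). With clusters in place of gates Nfia was higher in the mutant in 12 of 16 classes and Nfib in 13. Of the 28 class intervals above 0, 24 stayed there with TMM, 24 with DESeq2 factors, 25 with stricter gates, 21 of 26 with clusters, 20 in female and 21 in male cells, and of the 7 below 0, 7, 6, 2, 3, 3 and 3. The causes were not tested. Nfic, with 6702 UMIs in the mutant and 5982 in the control library, is the member whose class ratios depth limits most.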

Other observations

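Classes with fewer than 50 cells in a library held the members at levels of their own. In fibroblasts (21 mutant and 114 control cells) Nfia led, at 780 CPM (676 to 896) in the mutant and 692 CPM (651 to 735) in the control library, and Nfib stood at 265 and 242 CPM, a ratio of Nfib to Nfia of 0.340 and 0.349. Nfic in fibroblasts was 129 CPM (88.6 to 181) in the mutant and 153 CPM (134 to 174) in the control library. The control value lies above that of every described class in the control library. In endothelial cells (29 and 52 cells) Nfix was 34.5 CPM in the mutant and 29.0 CPM in the control library, beside 479 and 412 CPM of Nfia. Ependymal cells (46 and 75 cells) held 1080 CPM of Nfia in the mutant and 955 CPM in the control library, and 384 and 321 CPM of Nfix. In mural cells (21 and 40 cells) Nfib was 764 CPM in the mutant and 333 CPM in the control library, on 105 and 117 UMIs.

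The gene that overlaps the start of Nfia from the other strand did not keep a fixed share of it. E130114P18Rik gave 22.3% of the number of Nfia UMIs in Bergmann glia in the mutant and 25.4% in the control library, but 1.999% and 3.37% in unipolar brush cells. Over the 17 classes its level had an r of 0.92 with Nfia in the mutant and 0.93 in the control library.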
